A study of Arabidopsis thaliana with 47 samples.

Results

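The comparison described here is the response of Arabidopsis thaliana seedlings to 24 h of brighter light in the absence of lincomycin, measured across all genes of the ATH1 array. It rests on 7 of the 47 arrays of the series: replicates 1 to 3 of the seedlings collected 24 h after the shift and replicates 5 to 8 of the seedlings collected at 0 h. All were wild-type Col-0 seedlings grown on medium with 2% sucrose, kept for 6 days in weak light of blue and red wavelengths, at 0.5 µmol per square metre and second. The 24 h group then received 60 µmol per square metre and second of the same colours for 24 h, and the 0 h group was taken before the shift. Neither group was given the antibiotic. Each array held RNA of a pool of 50 to 100 whole seedlings, and the replicates were grown separately. The labels give an age of 7 days for every sample, and the day of growth between the time points cannot be told apart from the light. Replicate 4 of the 24 h group was left out. The 0 h replicates 1 to 4 were kept out of the comparison because their spike-in RNAs read far lower (Dap 3.01 to 5.02 on the log2 scale). They entered the estimate of spread that all groups share, and an alternative fit with all 8 arrays of 0 h. Seedlings grown on 0.5 mM lincomycin, which stops protein synthesis on plastid ribosomes, were used to ask where the response differed (4 arrays at 24 h and the 0 h replicates 5 to 8). Their arrays also entered the shared estimate of spread.

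Seedlings in dim light keep small chloroplasts and draw on stored and supplied carbon. A step to brighter light acts through phytochromes, cryptochromes and the photosynthetic apparatus itself. The nucleus encodes most photosystem, antenna, pigment and plastid ribosome proteins, and their transcripts are classic targets of light and of signals from the plastid. Flavonoids and early light-induced proteins shield the cell, while genes for the breakdown of amino acids and sugars are known to be on in darkness and off when sugar is plentiful.

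The deposited signals of all arrays had been scaled to the same trimmed mean, and the median signal of an array was 179.5 to 188.4 for the 24 h group, against 183.5 to 194.1 for the 0 h group. Replicate 4 of the 24 h group had a median signal of 293.9 and a median rank correlation of 0.619 with the other arrays, for which the lowest such value was 0.914. The spike-in RNA Dap read 8.34 to 8.55 on the log2 scale at 24 h and 8.69 to 9.01 at 0 h, against 4.52 on the array left out. The ratio of 3′ to 5′ probe sets of the GAPDH control, a measure of RNA integrity and labelling, was 0.94 to 1.11 (log2) at 24 h and 1.36 to 1.58 at 0 h. For the actin control the same ratio was 4.48 to 5.13 at 24 h and 4.49 to 5.03 at 0 h. The part of these differences in the results was not tested. The number of arrays limits the precision, and p-values measure the spread between separately grown replicates.

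After 24 h of brighter light 9947 of 22746 probe sets had changed at an adjusted p under 0.05, which is 43.7% of those tested. The levels of 4370 (19.2%) were higher at 24 h and those of 5577 (24.5%) were lower. Changes are given as log2 differences, 24 h minus 0 h, with the standard error of a limma fit (n = 3 and 4 arrays). The median difference of all probe sets was -0.09. A rise of more than 2, which is over 4-fold, was seen for 584 probe sets (2.57%) and a fall of more than 2 for 463 (2.04%), together 4.6%. In 215 of these 1047 the mean of the lower group did not exceed the first quartile of its arrays (5.55 at 24 h and 5.65 at 0 h), where an array gives little more than background. A change of such a gene is also measured from that quartile and then written "at least". The groups of arrays did not overlap for 46.4% of all probe sets.

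The largest rises included a mixture of light-responsive metabolic genes and loci without a symbol in the annotation used here. CHS (AT5G13930) encodes chalcone synthase, which opens the flavonoid pathway. Its log2 signal was 13.12, 13.49 and 13.10 on the 24 h arrays, against 7.29, 6.19, 7.73 and 6.45 on the 0 h arrays. All 24 h arrays were far above all 0 h arrays, and the difference of 6.32 ± 0.49 (adjusted p = 1.5e-13) is 80.0-fold. THI2.2 (AT5G36910), a thionin, one of a class of small defence peptides, read 12.57, 12.55 and 12.60 at 24 h, against 7.20, 6.47, 7.44 and 7.38 at 0 h. The 24 h arrays lay within a narrow range, and the difference was 5.45 ± 0.25 (adjusted p = 4.2e-20). CYP83A1 (AT4G13770) belongs to the core pathway of aliphatic glucosinolates. It read 12.29, 12.47 and 12.34 at 24 h, against 8.21, 6.67, 7.99 and 7.24 at 0 h, a difference of 4.84 ± 0.32 (adjusted p = 2.1e-15). The 0 h arrays were more scattered than the 24 h arrays but stayed below all of them. The glutathione transferase gene GSTU20 (AT1G78370) rose by 4.95 ± 0.30, and MSRB6 (AT4G04840), which encodes a methionine sulfoxide reductase that repairs oxidized protein, rose by 4.85 ± 0.37. PPT2 (AT3G01550), a phosphoenolpyruvate translocator, rose by 4.90 ± 0.49 (at least 3.64). The receptor-like kinase gene CRK21 (AT4G23290) rose by 5.44 ± 0.69 (at least 3.76) and the methyl esterase gene MES18 (AT5G58310) by 5.58 ± 0.55 (at least 2.07).

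The remaining 7 of the 15 largest rises belonged to loci without a symbol in the annotation used here, which does not mean that their function is unknown. AT1G13650 had a fitted rise of 6.57 ± 0.75, with log2 signals of 9.16, 8.84 and 9.43 at 24 h, against 1.97, 1.76, 1.91 and 4.63 at 0 h. Since its 0 h arrays were dim and 1 of them stood apart from the others, the rise measured from the quartile is at least 3.49. AT2G36145 rose by 5.59 ± 0.31 and AT2G25510 by 5.52 ± 0.49. The bounds for AT1G57770, AT3G44450, AT2G27420 and AT3G14760 were 4.77, 4.66, 3.49 and 3.26.

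**Figure D1:**
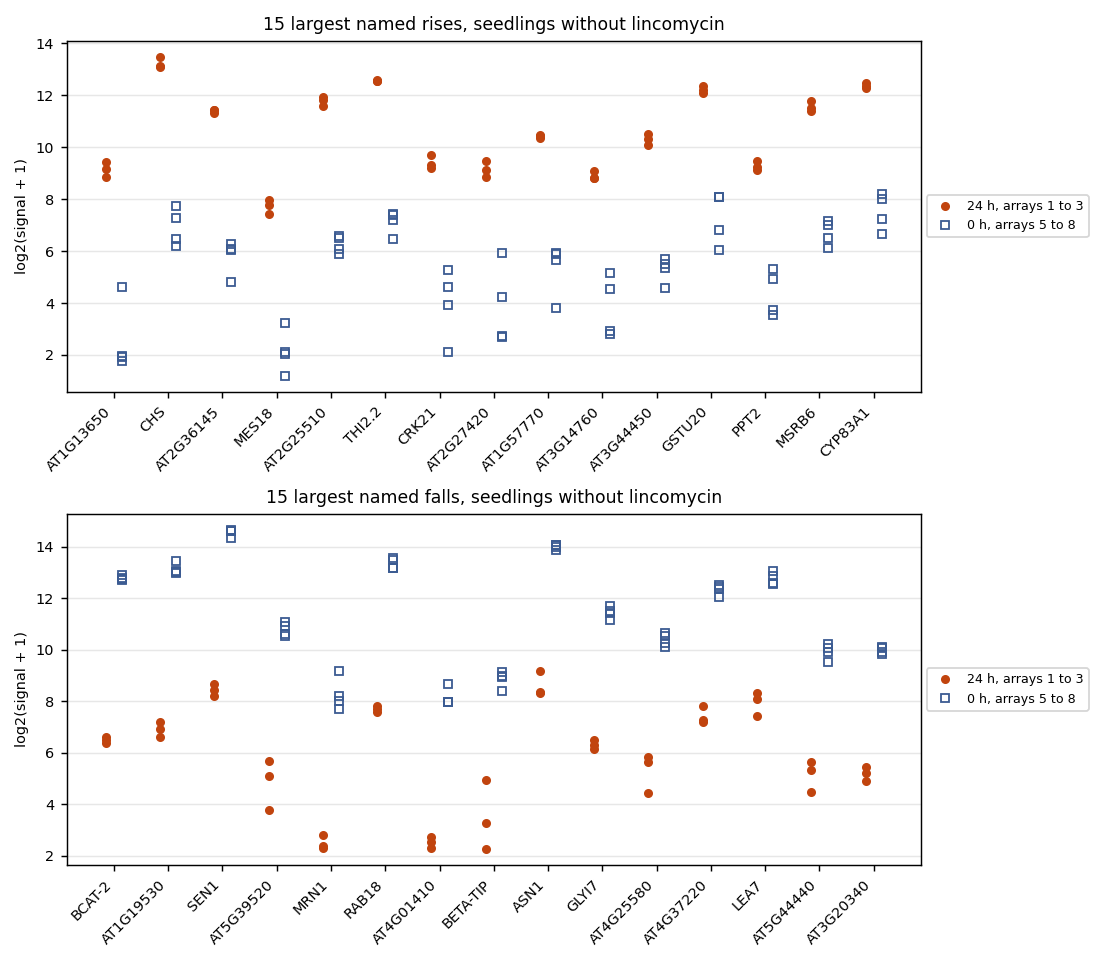
Log2(signal + 1) of each array for the 15 largest rises (top) and the 15 largest falls (bottom), with filled circles for the 3 arrays at 24 h and open squares for the 4 arrays at 0 h. The groups of arrays are apart for each of the 30 genes, as the choice of these genes required, and signals of 24 h range widely among the falls because several of them ended near background.

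The 15 largest falls included genes that are known to be active in darkness or carbon shortage. BCAT-2 (AT1G10070) encodes a branched-chain aminotransferase. Its signal was 6.37, 6.61 and 6.49 at 24 h, against 12.93, 12.70, 12.76 and 12.78 at 0 h, and it fell by 6.31 ± 0.18 (adjusted p = 5.2e-25), or 79.1-fold. Replicates agreed closely in both groups. SEN1 (AT4G35770), a marker of senescence and of dark treatment, read 8.21, 8.44 and 8.65 at 24 h, against 14.34, 14.62, 14.63 and 14.66 at 0 h, with a difference of -6.12 ± 0.17 (adjusted p = 2.8e-25). ASN1 (AT3G47340) encodes the dark-induced asparagine synthetase. It read 8.36, 8.31 and 9.19 at 24 h, against 14.06, 14.07, 13.90 and 14.02 at 0 h, a difference of -5.39 ± 0.17 (adjusted p = 6.8e-24). In all 3 genes every 24 h array lay below every 0 h array.

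The other named genes among the 15 largest falls were of varied function. The dehydrin gene RAB18 (AT5G66400), a target of abscisic acid, had signals of 7.82, 7.58 and 7.69 at 24 h, against 13.56, 13.49, 13.20 and 13.20 at 0 h, and a difference of -5.66 ± 0.22. LEA7 (AT1G52690), of the late embryogenesis abundant proteins, changed by -4.82 ± 0.33. BETA-TIP (AT1G17810), a vacuolar water channel, changed by -5.39 ± 0.66 (a fall of at least 3.32). GLYI7 (AT1G80160), of the glyoxalase family, fell by 5.13 ± 0.23, and MRN1 (AT5G42600), the marneral synthase gene of roots, fell by at least 2.72. The other 7 of the 15 carry no symbol in the annotation used here. AT1G19530 read 6.94, 7.20 and 6.62 at 24 h, against 13.00, 13.45, 13.08 and 13.01 at 0 h, and fell by 6.21 ± 0.19. For AT5G39520, AT4G25580, AT3G20340, AT5G44440 and AT4G01410, which ended below the quartile, the falls were at least 5.24, 4.84, 4.42, 4.39 and 2.61. AT4G37220 fell by 4.92 ± 0.19.

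Genes were also read by function. Each gene list below is given by its counts and its median beside the values for all probe sets (19.2% higher, 24.5% lower, median -0.09).

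**Figure D2:**
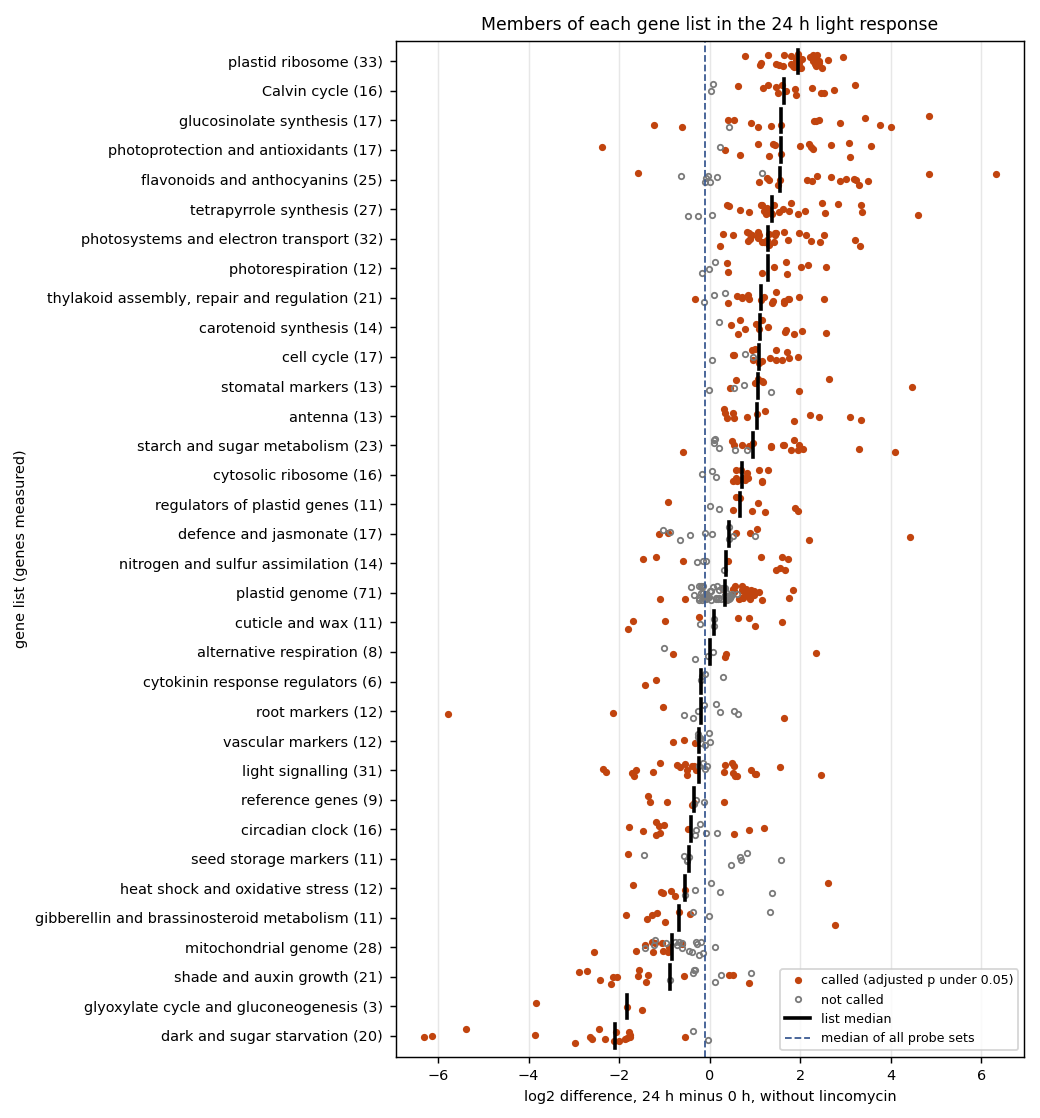
Each point is the log2 difference (24 h minus 0 h) of a gene, filled where called, in rows by gene list with the number of genes measured. Black bars mark list medians and the dashed line the median of all probe sets (-0.09), and the lists run from the plastid ribosome with a median of 1.95 to the genes of dark and sugar starvation with a median of -2.09.

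The nuclear genes of the photosynthetic membrane rose together. All 32 genes for photosystem subunits and electron transport were higher at 24 h, with a median of 1.30 and a range of 0.23 to 3.33. ATPD (AT4G09650), the delta subunit of the plastid ATP synthase, read 13.08, 13.10 and 13.04 at 24 h, against 9.66, 9.79, 10.09 and 9.41 at 0 h, and rose by 3.33 ± 0.12 (adjusted p = 1.5e-22). FNR2 (AT1G20020), a ferredoxin NADP reductase at the end of the electron chain, rose by 3.20 ± 0.15. Of the photosystem II genes PSBQ1, of the oxygen-evolving complex, rose by 2.53 ± 0.11 and PSBTN by 2.43 ± 0.11. The photosystem I genes PSAD2 and PSAH2 rose by 2.24 ± 0.13 and 2.13 ± 0.14. The smallest changes of the list were those of PSAG (0.23 ± 0.08) and PSBR (0.30 ± 0.09), named here after their values were seen.

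Of 21 genes listed for the light-harvesting antenna, 13 could be measured by a probe set that matches no other gene, and all 13 were higher (median 1.05). LHCB4.3 (AT2G40100), a form of the minor antenna protein CP29, read 11.24, 10.79 and 11.25 at 24 h, against 7.33, 7.66, 7.99 and 8.01 at 0 h. The groups were well apart, with a rise of 3.35 ± 0.17 (adjusted p = 2e-18). LHCA6, an antenna protein that ties photosystem I to the NDH complex, rose by 3.10 ± 0.15, and LHCB2.3 and LHCB6 by 2.41 ± 0.26 and 2.23 ± 0.12. LHCA1, a main antenna protein of photosystem I, rose by 1.23 ± 0.11. Near-identical antenna genes that share a probe set were tested but are not named.

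Among 21 genes for thylakoid assembly, repair and regulation 17 were higher and 1 was lower (median 1.13). The proteases of photosystem II repair were among the leading members: DEG8 rose by 2.52 ± 0.17, DEG2 by 1.98 ± 0.13, DEG5 by 1.64 ± 0.13 and FTSH5 by 1.73 ± 0.09. CURT1A and CURT1B, which bend the edges of the thylakoid grana, rose by 1.76 ± 0.09 and 1.65 ± 0.10. FTSH8 (0.09 ± 0.16, adjusted p = 0.72) and PGRL1B (-0.13 ± 0.13, adjusted p = 0.45) did not pass the test.

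Carbon fixation and photorespiration followed. In the Calvin cycle 14 of 16 genes measured were higher and none was lower (median 1.64). SBPASE (AT3G55800), a phosphatase of the regeneration phase, read 14.13, 13.95 and 13.90 at 24 h, against 11.29, 11.14, 11.56 and 10.98 at 0 h, a rise of 2.76 ± 0.11 (adjusted p = 9.8e-22). RPI3, ribose phosphate isomerase, rose by 3.21 ± 0.12, the plastid fructose bisphosphatase CFBP1 by 2.54 ± 0.11 and PGK1 by 2.46 ± 0.14. RCA, the activase of Rubisco, rose by 1.59 ± 0.10 (0.50 and not past the threshold with 24 h replicate 4 included) and GAPB by 1.90 ± 0.11. The 2 members that did not pass were GAPA1 (0.04 ± 0.13) and CP12-1 (0.07 ± 0.10), while CP12-2, a relative of CP12-1 and like it a small regulator of the cycle, rose by 2.26 ± 0.18. In photorespiration 9 of 12 genes were higher (median 1.29). The subunits of glycine decarboxylase GLDP1 and GDCH rose by 2.58 ± 0.12 and 2.17 ± 0.10, and SHM1, the serine hydroxymethyltransferase that works beside them, by 2.02 ± 0.10. The peroxisomal genes CAT2 (-0.18 ± 0.10, adjusted p = 0.15) and GGT1 (0.12 ± 0.09, adjusted p = 0.33) did not pass.

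Pigment synthesis rose along the pathway. Of 27 genes for tetrapyrroles, the family of chlorophyll and heme, 24 were higher and none lower (median 1.37). DVR (AT5G18660), the divinyl reductase of chlorophyll synthesis, read 11.88, 11.63 and 11.84 at 24 h, against 7.21, 7.10, 7.94 and 6.50 at 0 h. It had the largest change of the list (4.60 ± 0.28, adjusted p = 1.1e-16). Early steps rose with GSA2, which makes aminolevulinic acid, at 3.37 ± 0.13, and HEME2 at 2.55 ± 0.11. The magnesium chelatase subunits CHLI2 and CHLI1 rose by 2.83 ± 0.13 and 2.48 ± 0.10. The 3 protochlorophyllide oxidoreductases, which make the light-dependent step, differed: PORC (AT1G03630) read 13.03, 12.84 and 12.99 at 24 h, against 9.29, 9.65, 9.95 and 9.54 at 0 h, and rose by 3.35 ± 0.12 (adjusted p = 7e-23). PORB rose by 1.23 ± 0.19, and PORA, the form known from etiolated seedlings, changed by -0.48 ± 0.55 (adjusted p = 0.54) with arrays that overlapped. Besides PORA, the heme oxygenase gene HO1 (0.05 ± 0.12) and the second glutamyl-tRNA reductase gene HEMA2 (-0.26 ± 0.27) did not pass.

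**Figure D3:**
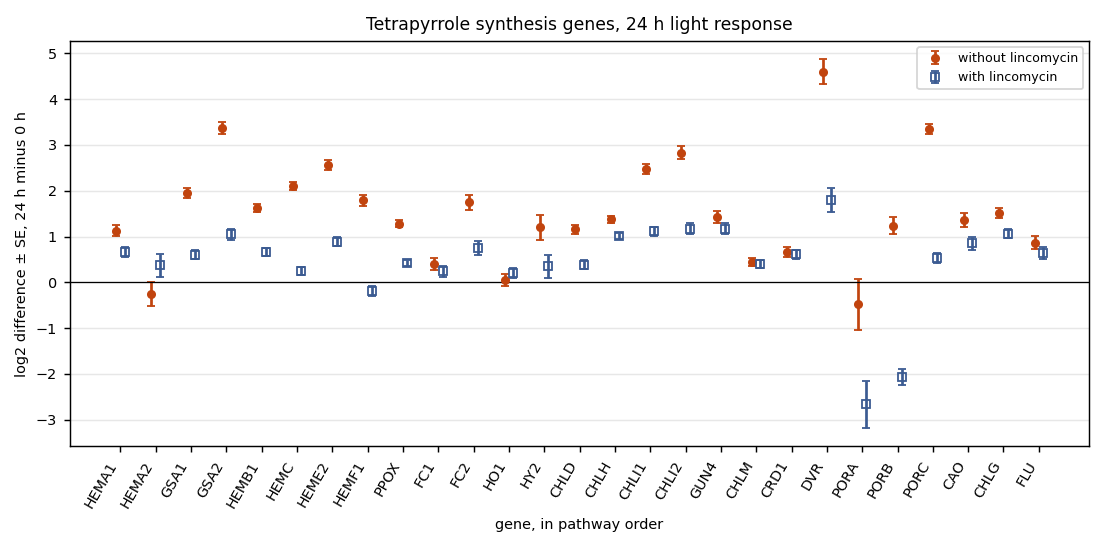
Log2 difference ± SE between 24 h and 0 h for the 27 tetrapyrrole genes in pathway order, filled circles without lincomycin and open squares with lincomycin. Without lincomycin 24 of 27 lie above 0 and pass the test, with DVR highest at 4.60, and with lincomycin PORB lies at -2.06. PORA with lincomycin is drawn at its fitted -2.67, but its 24 h level there was below the first quartile and the fall is at least 1.29.

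Among 14 genes of carotenoid synthesis and cleavage 13 were higher (median 1.12). CYP97A3 and LUT1, hydroxylases that make lutein, rose by 2.57 ± 0.18 and 2.04 ± 0.14, and PSY, phytoene synthase at the entry of the pathway, by 1.69 ± 0.12. The member that did not pass was the dioxygenase gene CCD1 (0.21 ± 0.12).

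In the list of photoprotection and antioxidants 15 of 17 genes were higher and 1 was lower (median 1.58). PRXQ (AT3G26060), a plastid peroxiredoxin, read 13.08, 13.32 and 13.10 at 24 h, against 9.81, 9.49, 9.96 and 9.18 at 0 h, a rise of 3.56 ± 0.12 (adjusted p = 3e-23). PSBS, the sensor of energy-dependent quenching, rose by 2.23 ± 0.13, and the thylakoid ascorbate peroxidase gene TAPX by 2.28 ± 0.21. The early light-induced genes ELIP1 and ELIP2, whose proteins bind free chlorophyll under light stress, rose by 3.07 ± 0.47 and 3.09 ± 0.30. The member that fell, APX2, lay below the first quartile in both groups, so no size is given.

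Flavonoid genes rose in most steps after the entry from phenylalanine. Of 25 genes measured 17 were higher and 1 was lower (median 1.55). Beyond CHS, the flavonol synthase gene FLS1 (AT5G08640) read 10.98, 11.00 and 11.08 at 24 h, against 6.43, 5.81, 6.15 and 6.32 at 0 h, and rose by 4.84 ± 0.20 (adjusted p = 2.2e-21). CHIL, a protein like chalcone isomerase, and F3H, flavanone hydroxylase, rose by 3.49 ± 0.34 (at least 3.17) and 3.22 ± 0.24. DFR, the entry to anthocyanins, rose by 3.31 ± 0.80 (adjusted p = 0.00068). Its arrays read 9.27, 9.29 and 8.51 at 24 h, against 6.01, 4.63, 5.52 and 6.70 at 0 h, so the spread was wide. PAL1 (-0.05 ± 0.13, adjusted p = 0.83) and C4H (0.16 ± 0.09, adjusted p = 0.18), enzymes of the general phenylpropanoid pathway, did not pass. The member that fell, named after its values were seen, was MYBL2 (-1.57 ± 0.14), a repressor of anthocyanin synthesis.

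The list with the highest median was that of nuclear genes for plastid ribosomal proteins. All 33 genes measured were higher, with a median of 1.95 and a range of 0.79 to 2.95. PRPL11 (AT1G32990), of the large subunit, read 12.18, 12.44 and 12.16 at 24 h, against 9.30, 9.36, 9.72 and 8.85 at 0 h, a rise of 2.95 ± 0.13 (adjusted p = 3e-20). PRPS20, of the small subunit, rose by 2.61 ± 0.11, and PRPL35, PRPL19, PRPL9 and PRPL28 rose by 2.38 to 2.48. For the cytosolic ribosome 13 of 16 genes were higher, with a smaller median of 0.72. RPS6A led at 1.30 ± 0.09, while its close copy RPS6B changed by 0.05 ± 0.09 (adjusted p = 0.71), and probes may not tell such copies apart fully.

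Among 11 regulators of plastid genes 8 were higher and 1 was lower (median 0.68). SIG2, a sigma factor of plastid transcription, rose by 1.95 ± 0.13. GLK1 (AT2G20570), a transcription factor of photosynthetic genes, read 9.99, 9.47 and 9.85 at 24 h, against 7.86, 7.46, 8.30 and 7.94 at 0 h, and rose by 1.88 ± 0.29 (adjusted p = 1.3e-06), whereas its partner GLK2 changed by 0.02 ± 0.10 (adjusted p = 0.93). The difference between the pair was not tested. GUN1, a plastid protein of retrograde signalling, rose by 1.07 ± 0.08. The fall was that of CGA1, a GATA factor of chloroplast development, at -0.91 ± 0.20 (adjusted p = 0.00029).

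Genes of cell division rose. Of 17 measured 14 were higher and none lower (median 1.09). MCM7 (AT4G02060), of the helicase that opens DNA for replication, read 8.75, 8.89 and 9.09 at 24 h, against 7.74, 6.85, 7.49 and 7.15 at 0 h, a rise of 1.60 ± 0.20 (adjusted p = 1.9e-08). The other helicase genes MCM3, MCM2 and MCM5 rose by 1.95 ± 0.43, 1.72 ± 0.27 and 1.46 ± 0.30, and the replication clamp PCNA1 by 1.74 ± 0.18. KNOLLE, the syntaxin of the dividing wall, rose by 1.47 ± 0.12. The inhibitor KRP2 (0.06 ± 0.17, adjusted p = 0.81) did not pass. In such bulk samples more cells of a type and more RNA per cell cannot be told apart.

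The list with the lowest median was that of genes known to be on in darkness or sugar starvation. Of 20 genes measured 18 were lower and none higher (median -2.09). Besides BCAT-2, SEN1 and ASN1, the leucine-breakdown genes MCCA (AT1G03090) and IVD (AT3G45300) fell. MCCA read 9.16, 9.46 and 9.04 at 24 h, against 12.95, 13.16, 13.07 and 13.17 at 0 h, a difference of -3.87 ± 0.14 (adjusted p = 1.1e-22), and IVD changed by -2.98 ± 0.14. DIN2, a beta-glucosidase named for its induction in the dark, changed by -2.64 ± 0.19. Only DIN9 (-0.37 ± 0.20, adjusted p = 0.14) and D2HGDH (-0.04 ± 0.11, adjusted p = 0.83) of the list did not pass. The 3 genes of the glyoxylate cycle and gluconeogenesis, which turn seed oil into sugar, fell too: ICL by 3.84 ± 0.26, PCK1 by 1.81 ± 0.08 and MLS by 1.50 ± 0.27. ICL, isocitrate lyase, read 8.08, 7.83 and 8.31 at 24 h, against 11.71, 12.20, 11.95 and 11.80 at 0 h.

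Starch and sugar genes moved the other way. Of 23 measured 16 were higher and 1 was lower (median 0.96). SPSC (AT4G10120), a sucrose phosphate synthase, read 10.50, 10.35 and 10.50 at 24 h, against 6.58, 6.81, 6.05 and 5.96 at 0 h, a rise of 4.10 ± 0.37 (adjusted p = 5.1e-12). Its relative SPSA1 changed by 0.09 ± 0.11 (adjusted p = 0.57). APS1, the small subunit of the enzyme that commits glucose to starch, rose by 3.29 ± 0.16. Both synthesis and breakdown were represented, with the starch synthase SS1 at 1.97 ± 0.09 and the glucan phosphorylase PHS1 at 1.95 ± 0.14. The glucan water dikinase gene SEX1 (0.12 ± 0.09) and the plastid glucose phosphate translocator gene GPT2 (0.09 ± 0.47, adjusted p = 0.91) did not pass. The fall was that of SUS1, a sucrose synthase named after its values were seen (-0.60 ± 0.15).

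In nitrogen and sulfur assimilation 7 of 14 genes were higher and 3 lower (median 0.36). ASN2, the asparagine synthetase that is not dark-induced, rose by 1.73 ± 0.13, opposite to ASN1. Nitrite reductase NIR1 rose by 1.66 ± 0.13, and the sulfate-reducing genes ATPS1, APR1 and APR2 rose by 1.61 ± 0.12, 1.55 ± 0.15 and 1.47 ± 0.14. The glutamate dehydrogenase gene GDH1 fell by 1.48 ± 0.15.

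Most genes for glucosinolates, the sulfur-containing defence compounds of the cabbage family, rose. Of 17 genes measured 14 were higher and 2 lower (median 1.58). MAM1 (AT5G23010), which extends the methionine chain, read 12.65, 12.48 and 12.58 at 24 h, against 9.32, 7.82, 8.71 and 8.46 at 0 h, a rise of 4.00 ± 0.22 (adjusted p = 5.8e-18). BCAT4, the first enzyme of the same chain extension, rose by 3.76 ± 0.31. Their regulators MYB29 and MYB28, transcription factors of the aliphatic branch, rose by 3.43 ± 0.23 (at least 3.32) and 2.89 ± 0.22. The 2 genes that fell, named after their values were seen, work in the indole branch: MYB51, a regulator, changed by -1.23 ± 0.20 and CYP79B3, an entry enzyme, by -0.60 ± 0.13.

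Defence and jasmonate genes were mixed, with 5 of 17 higher and 2 lower (median 0.42). LOX2 (AT3G45140), the plastid lipoxygenase at the start of jasmonate synthesis, stood out. It read 11.48, 11.25 and 11.48 at 24 h, against 5.97, 7.22, 6.79 and 7.95 at 0 h, a rise of 4.42 ± 0.41 (adjusted p = 1.5e-11). ICS1, of salicylate synthesis, rose by 1.05 ± 0.17, and JAZ1, a repressor induced by jasmonate, fell by 1.12 ± 0.16.

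Light signalling genes were divided: 12 of 31 were higher and 15 lower (median -0.23). PHYA (AT1G09570), the phytochrome of dim and far-red light, read 10.15, 10.41 and 10.47 at 24 h, against 12.74, 12.82, 12.68 and 12.58 at 0 h, and changed by -2.36 ± 0.08 (adjusted p = 6e-23). FHL, which carries phytochrome A into the nucleus, fell by at least 1.70, and HFR1, a factor downstream of it, fell by 2.29 ± 0.16. Of the phytochrome-interacting factors PIF3 fell by 1.62 ± 0.16 and PIF4 by 0.49 ± 0.11, while PIF5 changed by -0.15 ± 0.12 (adjusted p = 0.34). RUP2, which switches off the UV-B receptor, rose by 2.46 ± 0.20. HY5 (AT5G11260), a central activator of light-induced genes, was lower at 24 h (-0.49 ± 0.17, adjusted p = 0.019), with signals of 7.09, 7.34 and 6.97, against 7.57, 7.73, 7.45 and 7.75 at 0 h. That call was lost when 24 h replicate 1, 24 h replicate 3 or 0 h replicate 8 was left out (-0.47, -0.41 and -0.45). The blue light receptor gene CRY1 changed by -0.10 ± 0.13 (adjusted p = 0.62).

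Of 16 clock genes 3 were higher and 8 lower (median -0.40). TOC1 (AT5G61380), which peaks in the evening, read 9.04, 9.49 and 9.04 at 24 h, against 10.47, 10.44, 10.24 and 10.37 at 0 h, a difference of -1.19 ± 0.12 (adjusted p = 7.6e-11). The morning genes went in opposite directions, CCA1 by -0.48 ± 0.12 and LHY by 0.53 ± 0.15, and for both the arrays of the groups overlapped. Both calls were lost when only the 7 arrays were fitted, and LHY also without 24 h replicate 1 (0.40). RVE1 changed by -1.78 ± 0.15, ZTL by -1.19 ± 0.13 and LNK1 by 1.20 ± 0.13. GI (0.16 ± 0.11) and PRR7 (-0.08 ± 0.12) did not pass. The labels do not give the clock time of the harvests.

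Genes of the shade response were lower more often than higher: of 21 genes of shade and auxin 11 were lower and 3 higher (median -0.87). ATHB2 (AT4G16780), a classic shade marker, read 7.42, 7.51 and 7.91 at 24 h, against 9.32, 9.21, 8.99 and 9.22 at 0 h, and changed by -1.57 ± 0.37 (adjusted p = 0.00061). XTH15, a wall-loosening enzyme, fell by 2.70 ± 0.22, the auxin-response gene IAA29 by 2.42 ± 0.30 and PAR1 by at least 2.71. Among 11 genes of gibberellin and brassinosteroid metabolism 7 were lower and 1 was higher. The rise was that of GA2OX1, which inactivates gibberellin, by 2.78 ± 0.37 (at least 1.40), and CPD, of brassinosteroid synthesis, fell by 1.27 ± 0.11. Of 6 cytokinin response regulators 2 were lower, ARR5 by -1.42 ± 0.12 and ARR16 by -1.18 ± 0.12, and ARR4 (-0.11 ± 0.15) and ARR7 (-0.19 ± 0.17) did not pass.

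Stress genes were mostly at or below their level in dim light. Of 12 genes of heat shock and oxidative stress 6 were lower and 1 was higher (median -0.55). The chaperone gene HSP90.1 read 8.83, 8.53 and 9.11 at 24 h, against 9.71, 9.80, 9.54 and 9.62 at 0 h, a difference of -0.85 ± 0.17 (adjusted p = 4.9e-05), which was -0.20 and did not pass with all 8 arrays at 0 h. The regulator ZAT10 changed by -1.04 ± 0.18 and WRKY40 by -1.08 ± 0.20, whereas HSP101 (0.22 ± 0.29) did not pass. In alternative respiration 3 of 8 genes were higher and 1 lower: NDA1, an internal NADH dehydrogenase of mitochondria, rose by 2.34 ± 0.25, and the alternative oxidase gene AOX1A by 0.36 ± 0.10. For cuticle and wax 4 of 11 were higher and 4 lower, with CER1, of alkane synthesis, at 1.59 ± 0.18 and the lipid transfer protein gene LTP2 at -1.80 ± 0.11.

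The state at 24 h was also set against that at 4 h (n = 3 and 4 arrays). The series holds no seedlings kept in dim light until 4 or 24 h, and the labels give no clock time. Time of day and growth can therefore not be told apart from time in brighter light. The responses at 4 h and 24 h share their 0 h arrays. At 4 h 9470 probe sets (41.6%) differed from 0 h, 4752 (20.9%) higher and 4718 (20.7%) lower. Between 24 h and 4 h 6399 (28.1%) differed, 2434 (10.7%) higher at 24 h and 3965 (17.4%) lower. The medians of all probe sets were -0.06 for 4 h minus 0 h and -0.06 for 24 h minus 4 h. Of the 584 probe sets that rose by more than 2 at 24 h, 376 (64.4%) were also above 4 h, and 16 were below it. Of the 463 that fell by more than 2, 276 (59.6%) were also below 4 h and 4 were above it. The same 24 h arrays served for the choice of these probe sets and for the comparison with 4 h. The choice itself favours a further change in the same direction, so these shares only describe the chosen probe sets.

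The 8 largest fitted rises between 4 and 24 h included MES18, 3 glucosinolate genes and loci without a symbol in the annotation used here. MES18 read 2.05, 1.20, 2.10 and 3.25 at 0 h, 2.29, 2.54, 3.14 and 2.74 at 4 h and 7.95, 7.42 and 7.80 at 24 h. Its 0 h and 4 h arrays overlapped near background and the 24 h arrays stood above both, with 24 h minus 4 h at 5.05 ± 0.55 (at least 2.22). CYP83A1, MAM1 and BCAT4 rose between 4 and 24 h by 4.48 ± 0.32, 3.96 ± 0.22 and 3.91 ± 0.31, where 4 h minus 0 h was 0.36, 0.04 and -0.15, none of which passed. GSTU20 (3.82 ± 0.30), AT1G13650 (3.86 ± 0.75, at least 3.64), AT3G05730 (3.74 ± 0.44) and AT2G25510 (3.71 ± 0.49) were the others. Where a bound is given, the place in this order is that of the fit and is not established. All 33 plastid ribosome genes were higher at 24 h than at 4 h, with a median of 1.61 against 0.40 for 4 h minus 0 h. Photosystem genes were higher than at 4 h in 31 of 32 cases (median 0.81) and tetrapyrrole genes in 21 of 27 (median 0.93).

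For other genes with a large response the difference between 4 and 24 h did not pass. CHS averaged 6.92 ± 0.72 at 0 h, 13.21 ± 0.14 at 4 h and 13.24 ± 0.22 at 24 h (SD, n = 4, 4 and 3), and its 24 h minus 4 h difference of 0.03 ± 0.49 did not pass (adjusted p = 0.98). FLS1 changed by -0.29 ± 0.20 between 4 and 24 h and GLDP1 by 0.08 ± 0.12, neither past the threshold. In the flavonoid list 2 genes were higher at 24 h than at 4 h and 6 were lower.

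Another set was lower at 24 h than at 4 h. PHI-1 (AT1G35140), an EXORDIUM-like gene, read 7.26, 7.58, 8.29 and 7.79 at 0 h, 11.51, 11.32, 11.42 and 11.37 at 4 h and 6.01, 6.25 and 5.30 at 24 h. It was highest at 4 h and ended below dim light, with 24 h minus 4 h at -5.55 ± 0.22 (adjusted p = 1.2e-19). TCH4, a wall-modifying enzyme induced by touch and brassinosteroid, averaged 10.17 ± 0.11 at 0 h, 12.62 ± 0.13 at 4 h and 7.87 ± 0.56 at 24 h, a difference of -4.75 ± 0.20 between the last times. Of the heat shock list 8 of 12 were higher at 4 h than at 0 h (median 1.90), and 10 of 12 were lower at 24 h than at 4 h (median -1.98). HSP90.1 changed by -3.27 ± 0.17 between 4 and 24 h and the small heat shock gene HSP17.4 by -4.13 ± 0.45. HSFA2, the heat shock factor, fell by at least 2.28. ELIP1 averaged 6.32 ± 0.33 at 0 h, 11.24 ± 0.26 at 4 h and 9.39 ± 0.08 at 24 h, so that its level at 24 h lay between the others. HY5 and CGA1, higher than 0 h at 4 h (1.40 ± 0.16 and 1.96 ± 0.19), changed by -1.89 ± 0.17 and -2.87 ± 0.20 from 4 to 24 h. LEA7 changed by -4.42 ± 0.33, AT4G37220 by -3.70 ± 0.19, AT5G51440 by -3.66 ± 0.29 and RAB18 by -3.59 ± 0.22.

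**Figure D4:**
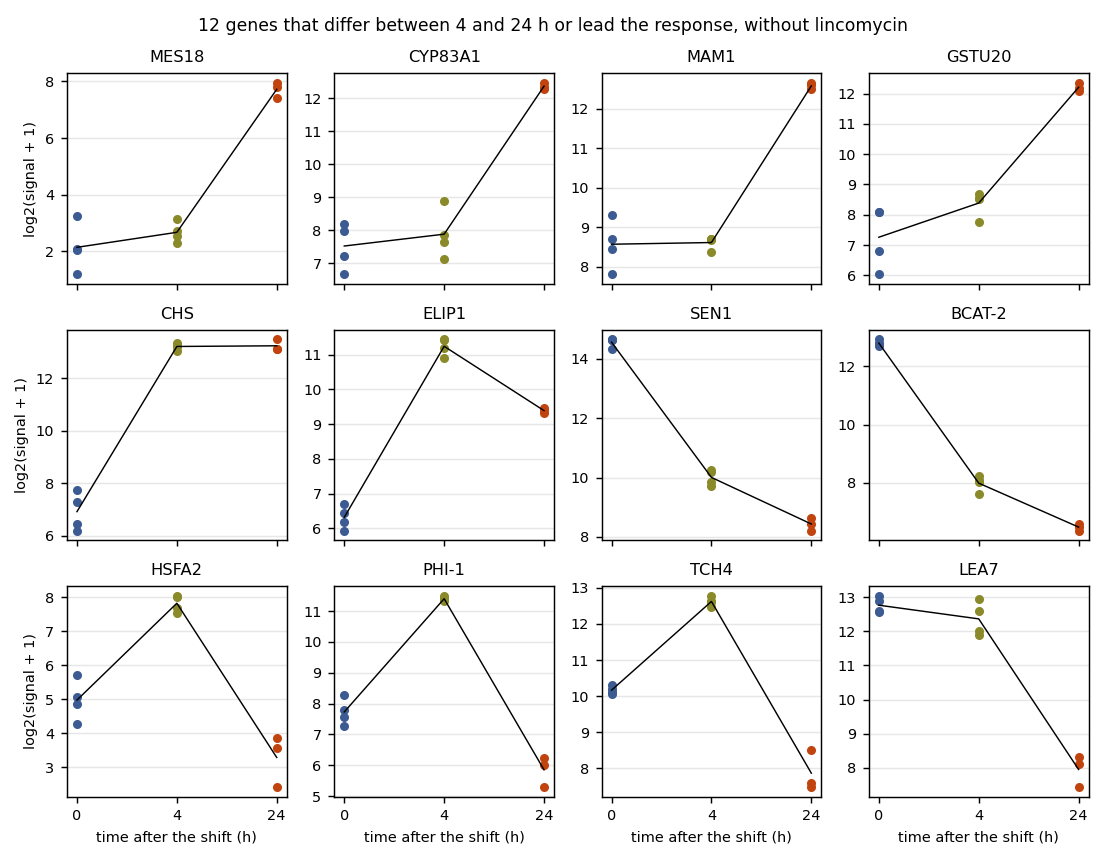
Log2(signal + 1) at 0 h (4 arrays), 4 h (4 arrays) and 24 h (3 arrays) without lincomycin, with times evenly spaced on the axis, a point per array and a line through the means, and a separate vertical scale for each gene. MES18, CYP83A1, MAM1 and GSTU20 rise mainly after 4 h, CHS lies at 13.21 at 4 h and 13.24 at 24 h, SEN1 and BCAT-2 keep falling, and HSFA2, PHI-1 and TCH4 are highest at 4 h.

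Markers of cell types were read on the same arrays. Stomatal genes were higher for 9 of 13 and lower for none (median 1.06), with a mean level over the list of 6.83 to 7.01 at 24 h and 5.35 to 5.87 at 0 h. SDD1 (AT1G04110), a protease that limits stomatal number, read 7.98, 8.19 and 7.97 at 24 h, against 2.49, 5.11, 5.12 and 1.61 at 0 h, a rise of 4.46 ± 0.62 (at least 2.40). KAT1, a guard cell potassium channel, rose by 1.98 ± 0.43. MUTE lay below the first quartile in both groups, so no size is given for it. Of 12 root markers 1 was higher and 3 lower (mean level 7.41 to 7.47 at 24 h and 7.80 to 8.14 at 0 h). These counts are near the shares of all probe sets, 19.2% higher and 24.5% lower. MRN1, CASP1 and the iron transporter gene IRT1 (-2.13 ± 0.27) were lower. EXPA7 was higher, at 6.70, 6.90 and 6.90 at 24 h, against 6.12, 3.59, 5.80 and 5.28 at 0 h, where its mean was below the first quartile. Of 12 vascular markers 3 were lower, with the largest difference at -0.82 ± 0.16 for XCP1. Seed storage markers had a mean level of 4.47 to 5.27 at 24 h and 4.62 to 5.32 at 0 h, and EM1 alone of 11 passed, with a fall of at least 1.27. The part of a change in tissue makeup in the other results was not tested.

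Some genes often used as constant references were not constant. ACT2 (AT3G18780) read 12.58, 12.39 and 12.49 at 24 h, against 13.85, 13.80, 13.91 and 13.84 at 0 h, a difference of -1.36 ± 0.08 (adjusted p = 3.3e-17). ACT8, a near copy in sequence, changed by -1.31 ± 0.07 and UBC21 by -0.93 ± 0.09. PP2AA3 changed by -0.40 ± 0.10. GAPC2 rose by 0.32 ± 0.07, but changed by -0.33 with 24 h replicate 4 included and by 0.09 after quantile normalization, which did not pass.

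Part of the probe sets of the organelle genomes changed in signal. Of 71 probe sets of the plastid genome 25 were higher and 2 lower (median 0.34, mean level 11.38 to 11.72 at 24 h and 10.96 to 11.38 at 0 h). The ribosomal protein genes rpl22, rps19 and rps3 rose by 1.85 ± 0.15, 1.75 ± 0.18 and 1.09 ± 0.14. For rpl22 the arrays read 13.23, 13.38 and 13.26 at 24 h, against 11.44, 11.37, 11.73 and 11.23 at 0 h. The photosystem gene psbM (-0.24 ± 0.28) and the NDH gene ndhI (0.36 ± 0.22) did not pass. Of 28 probe sets of the mitochondrial genome 11 were lower and none higher (median -0.82), among them cox1 (-1.28 ± 0.15). The mean level of that list was 5.84 to 6.05 at 24 h and 6.48 to 6.92 at 0 h, and 4 of 28 were lower and 1 higher with all 8 arrays at 0 h. Its 24 h level lay near the first quartile of those arrays (5.55), where an array gives little more than background. The spike-in and GAPDH values given above move with the groups, and their part in these values was not tested.

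The last comparison asked where the 24 h response differed from that of seedlings on lincomycin. The responses share no arrays. Levels of many genes already differed between the lincomycin groups at 0 h, and such a gap is part of a difference between responses. Its share in the differences was not tested. With lincomycin 6943 probe sets (30.5%) changed, 2974 (13.1%) higher and 3969 (17.4%) lower. The difference between the responses, without minus with lincomycin, passed for 6844 (30.1%), 3285 (14.4%) positive and 3559 (15.6%) negative. The medians of all probe sets were -0.07 for the response with lincomycin and -0.02 for the difference. Of the probe sets higher without lincomycin 1859 were higher in both, which is 42.5% of those without and 62.5% of those with lincomycin. Of the probe sets lower without lincomycin 2324 were lower in both, which is 41.7% of those without and 58.6% of those with lincomycin. Of the 584 rises over 2 the difference passed in the same direction for 444 (76.0%), and of the 463 falls over 2 for 333 (71.9%). These probe sets were chosen by the response without lincomycin, which is also a term of the difference. The choice itself favours the same direction, so these shares only describe the chosen probe sets.

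**Figure D5:**
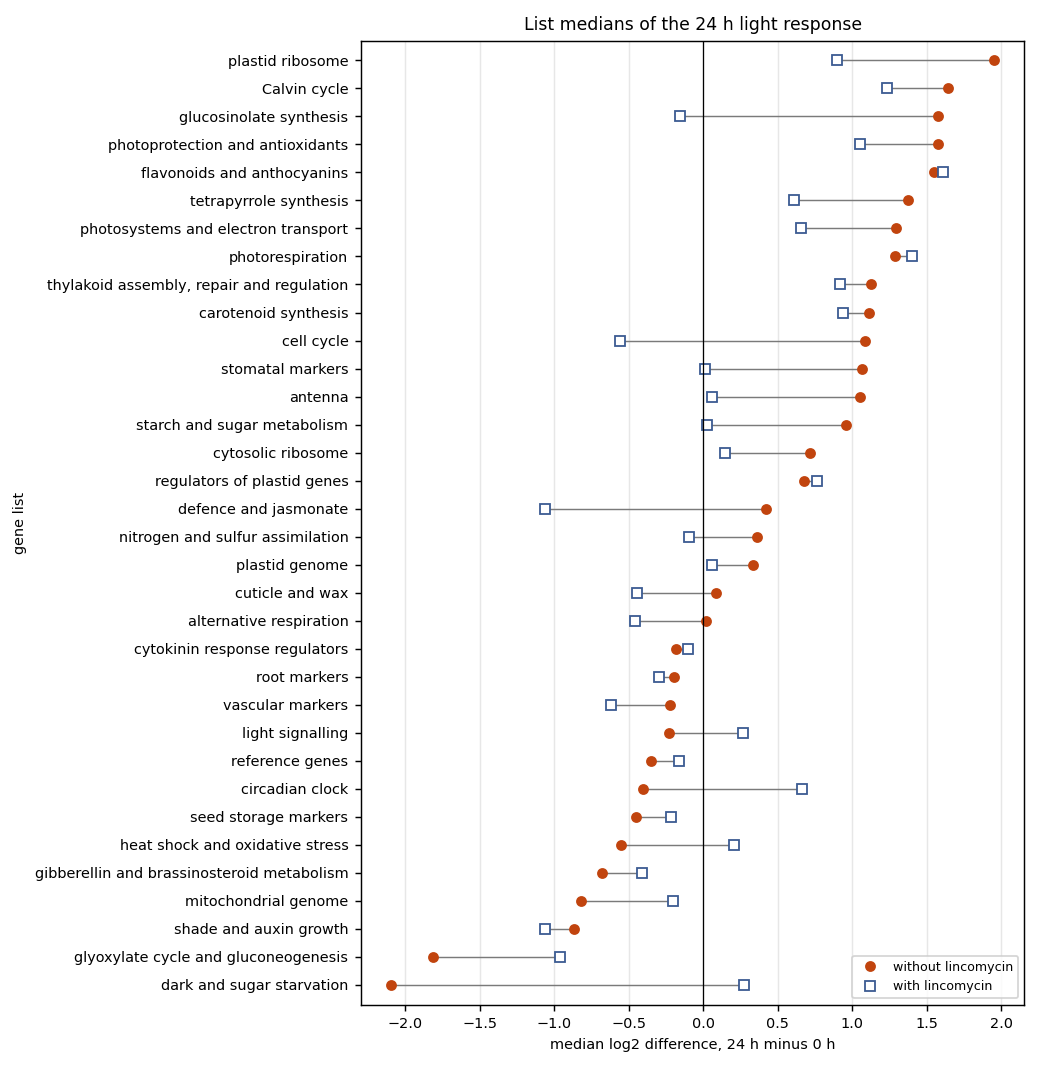
Median log2 difference (24 h minus 0 h) of each gene list, filled circles without lincomycin and open squares with lincomycin. The medians are furthest apart for dark and sugar starvation (-2.09 without and 0.27 with lincomycin), glucosinolates and cell cycle, and close for flavonoids (1.55 without and 1.61 with lincomycin).

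Among the lists, the medians with and without lincomycin were furthest apart for starvation. The median of the 20 genes was -2.09 without and 0.27 with lincomycin, and the difference was negative and passed for 19. At 0 h the mean level of the list was already lower with lincomycin, 10.47 to 10.77 against 11.72 to 11.89 without. SEN1 changed by -6.12 ± 0.17 without and 0.23 ± 0.16 with lincomycin, a difference of -6.35 ± 0.23 (adjusted p = 3.4e-21). On lincomycin its arrays read 13.06, 12.78, 13.15 and 12.36 at 24 h, against 12.29, 12.65, 12.73 and 12.76 at 0 h, while without it they lost the bulk of their signal as given above. BCAT-2 and ASN1 differed by -6.32 ± 0.25 and -5.97 ± 0.24. The other negative differences among the 8 largest were those of PAP85 (-6.16 ± 0.61), the threonine aldolase gene THA1 (-5.87 ± 0.38), AT4G25580 (-5.54 ± 0.36), the blue copper protein gene BCB (-5.42 ± 0.33) and AT5G14470 (-5.04 ± 0.60), annotated as a galactokinase. AT4G25580 and AT5G14470 at 24 h without lincomycin, and PAP85 at 0 h with lincomycin, were below the first quartile of their arrays, so their sizes and order are those of the fit and are not established.

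Positive differences were led by LOX2, which changed by 4.42 ± 0.41 without and -2.18 ± 0.38 with lincomycin (difference 6.59 ± 0.56, adjusted p = 8.5e-12). At 0 h its arrays read 9.75, 9.26, 9.74 and 10.09 with lincomycin, against 5.97, 7.22, 6.79 and 7.95 without. AT1G13650, MES18, CRK21, AT2G25510, SDD1, GSTU20 and AT2G34620 followed at 6.47, 5.32, 5.24, 5.16, 4.36, 4.35 and 4.34. In AT1G13650, MES18, CRK21 and SDD1 the 0 h arrays were near background, so these sizes and their order are those of the fit and are not established either. By list, the difference was positive for 14 of 17 cell cycle genes, whose medians were 1.09 without and -0.56 with lincomycin. The mean level of these cell cycle genes at 0 h was already higher with lincomycin, 8.23 to 8.38 against 7.18 to 7.46 without. At 24 h it was 7.62 to 7.81 with and 8.42 to 8.53 without lincomycin. The difference between responses was positive for 15 of 17 glucosinolate genes and 31 of 33 plastid ribosome genes. Photosystem genes had medians of 1.30 without and 0.66 with lincomycin, with 23 of 32 differences positive and 1 negative. For the antenna they were 1.05 and 0.06, with 9 of 13 positive.

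Other lists responded with lincomycin too. Flavonoid genes had 7 positive and 3 negative differences of 25, and the photorespiration list 3 positive and 6 negative of 12. PSBS changed by 2.23 ± 0.13 without and 1.99 ± 0.12 with lincomycin, and the difference did not pass (0.24 ± 0.18, adjusted p = 0.35). Its levels were not alike, however. At 0 h its arrays read 9.18, 9.23, 9.25 and 8.85 with lincomycin, against 12.14, 11.85, 12.52 and 11.92 without. At 24 h they read 11.07, 11.19, 11.14 and 11.06 with lincomycin, below all 0 h arrays without it. RCA rose by 1.59 ± 0.10 without and 2.27 ± 0.10 with lincomycin, a negative difference of -0.68 ± 0.14. At 0 h its arrays read 11.23, 11.29, 11.19 and 11.17 with lincomycin, against 13.14, 12.88, 13.16 and 12.82 without. Its 24 h arrays read 13.48, 13.62, 13.68 and 13.18 with lincomycin, still below the 14.62, 14.66 and 14.49 without. In light signalling 17 of 31 differences were negative and none positive, with HY5 at -1.43 ± 0.24, and in the clock 12 of 16 were negative and 1 positive, with CCA1 at -2.18 ± 0.16. At 0 h the CCA1 arrays read 8.24, 8.62, 8.42 and 8.67 with lincomycin, against 10.51, 10.26, 10.61 and 10.11 without, while those of HY5 overlapped.

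The authors' deposited table of log ratios lists 24 h light ratios without lincomycin for these probe sets, in a scale whose base is not stated. Of 9325 probe sets called here and present in it, 8695 (93.2%) had the same sign. These ratios come from the same series, so a shared sign is no independent support. Their ratio for SEN1 is -7.25 and for CHS 6.79, and for RCA 0.79, ATPS1 0.68 and CER1 0.40. Genes that rose here while their ratio has the other sign include GAPC2 (-0.63), UCP1 (-0.24), LHY (-0.04) and AOX1A (-0.03).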

How the data were processed

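Total RNA of pooled whole seedlings was hybridised to Affymetrix ATH1 arrays, 1 sample per array. The authors deposited a table of signal intensity per probe set, in which the mean after trimming 2% at each end was 500.03 to 500.05 on every array. Of the tools, MAS5 and GCRMA are named per the submitters' processing notes, but not the table each belongs to. The authors' deposited table of log ratios, read as log2, and its p-value columns were used only for the values credited to it, since neither the base nor the test is stated in the sources used here.

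Of 22810 probe sets 64 controls were left out and 22746 tested. Of those tested, 21463 match 1 gene in the platform annotation and the RefSeq table of symbols, 503 several and 712 none, and 68 were in conflict. Only the first are named. Values were log2(signal + 1). A limma fit (limma 3.58.1, R 4.3.3, lmFit and eBayes) over 46 arrays gave the 24 h minus 0 h difference (3 and 4 arrays), 24 h minus 4 h, and the difference from the response with lincomycin, with Benjamini-Hochberg adjustment over all probe sets and a threshold of 0.05. The fit shares its estimate of spread over all groups, so that a difference can pass where the arrays of its groups overlap. It was tested on simulated data in which each probe set had the same spread in every group, so that test cannot check the shared estimate. The 24 h replicate 4 was left out of the fit. Tables and figures used Python 3.11.15, pandas 2.3.3, numpy 2.4.6, scipy 1.17.1 and matplotlib 3.10.9.

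Named genes are the 15 largest rises and falls among called probe sets of 1 gene whose groups do not overlap and whose brighter group reaches the median signal (log2 7.70), up to 6 called and 2 uncalled members of each list, the 8 largest differences each way in the other comparisons, and 21 genes named in advance. A gene with several probe sets is represented by the brightest. The members and lists were chosen with earlier results of these data known. Same-numbered replicates at 24 h and 4 h did not deviate together (correlations 5e-04, 0.0063 and -0.0159). Nor did those without and with lincomycin, where correlations were -0.0107 to 0.0131 at 24 h and -0.0165 to 0.0043 at 0 h, so numbers were not treated as pairs. Alternatives were another pseudocount (16), quantile normalization, a filter on low signals, trend and robust variance, other sets of arrays, and each array left out in turn. No genome was used here and promoter sequences were not analysed here.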

Additional observations from a re-analysis of the deposited data

Results flagged for a closer look

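Replicate 4 of the 24 h group stood apart from the other 3 arrays on each quality measure tested. Its median signal was 293.9, its median rank correlation 0.619, its GAPDH 3′ to 5′ ratio 6.31 (log2) and its Dap signal 4.52. The mean level of its plastid genome probe sets was 13.36 and that of its mitochondrial probe sets 9.03.

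At 0 h, 6 of 48 gene groups of 4 arrays held an array far from the other 3, by a rule that flags a single group by chance in about 1 of 20 cases. The groups are genes read on the same 4 arrays, many of them chosen for a large change. They are not independent, so their share cannot be set against that rate. Replicate 8 read 4.63 for AT1G13650, 4.83 for AT2G36145, 3.82 for AT1G57770 and 10.09 for PIF5. Replicate 5 read 14.34 for SEN1 and 8.69 for AT4G01410.

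The 24 h response without lincomycin differed from that with it, by a test of the difference, for 6844 probe sets. The largest fitted positive differences were those of LOX2 (6.59), AT1G13650 (6.47), MES18 (5.32), CRK21 (5.24), AT2G25510 (5.16), SDD1 (4.36), GSTU20 (4.35) and AT2G34620 (4.34). The largest negative ones were those of SEN1 (-6.35), BCAT-2 (-6.32), PAP85 (-6.16), ASN1 (-5.97), THA1 (-5.87), AT4G25580 (-5.54), BCB (-5.42) and AT5G14470 (-5.04). For AT1G13650, MES18, CRK21, SDD1, PAP85, AT4G25580 and AT5G14470 at least 1 of the 4 groups was near background, so that these sizes are those of the fit.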

How the results depend on the processing

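Counts of called probe sets stayed within 1.5 times of the reported ones under the alternatives run, except in 2 fits with a replicate block. The 24 h response had 9947 calls, and 8713 with a filter on low signals, 8898 with the 7 arrays alone, 9602 with 24 h replicate 4 included, 9467 after quantile normalization, 10298 with late arrays only and 10010 with all 8 arrays of 0 h. Leaving out 1 array gave 9034 to 9642 calls, against 5386 to 6004 for 24 h minus 4 h and 6205 to 6769 for the difference from lincomycin. For 24 h minus 4 h, the fit with a replicate block on 7 arrays called 0 probe sets (0 higher and 0 lower), with 6614 at an unadjusted p under 0.05 by limma. Chosen after seeing the data, 7 arrays without the block gave 5265 calls and the replicate block over 46 arrays 5841, of which 5606 were also among the 6399. Also added afterwards for the difference from lincomycin (6844 calls), 15 arrays with a replicate block gave 4693 calls (2371 positive and 2322 negative), of which 4377 were among the 6844. The same arrays without the block gave 6383 calls, and the replicate block over 46 arrays gave 6632. No paired analysis was possible for the 24 h response because its groups share no replicate numbers. Of 4249 gene values under the alternatives, 4107 kept the call or its absence, 81 lost the call and 59 gained it. A change of sign was counted apart only where the gene was called in either fit. With 24 h replicate 4 included, UCP1 (0.34) turned to -0.0088 and GAPC2 (0.32) to -0.33; the cause was not tested. Including it moved the median of all probe sets to 0.16. Among list counts 55 of 980 moved by over 1.5 times, the organelle lists among them. Signals near the first quartile limit the size, but not the direction, of changes given as bounds.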
